A study of Mus musculus with 5 samples.

Results

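The genes described here are 10 products of maturing neutrophils, namely Mpo, Elane, Prtn3, Ltf, Camp, Ngp, Lcn2, Chil3, S100a8 and S100a9. They were taken by gene symbol from the platform annotation, which gave 12 of the 12488 probe sets and 10 of the 8251 genes with a symbol of their own. Mpo and Lcn2 had 2 probe sets each and the other genes 1, and 0 probe sets were shared with a gene of another symbol. The genes were grouped by role into 3 early granule genes (Mpo, Elane, Prtn3), 5 late granule genes (Ltf, Camp, Ngp, Lcn2, Chil3) and the 2 calprotectin genes.

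Total RNA of 5 mouse co-cultures was hybridised to 1 one-colour array each. The groups were Fos-/- splenocytes expressing deltaNFAT after infection with a virus, Fos-/- splenocytes infected with a virus for green fluorescent protein (GFP), Fos-/- splenocytes without virus, Fos+/+ bone marrow cells and Fos+/+ splenocytes. All were co-cultured with stromal cells of the ST2-T line over 6 days, in the presence of 1,25-dihydroxyvitaminD3 and dexamethasone, conditions that form osteoclasts, and each dish was harvested whole. Every array therefore holds the RNA of the stromal cells as well, and a smaller number of neutrophil-lineage cells and less RNA per cell cannot be told apart. Strain, age, the number of animals, the virus dose and the make-up of the deltaNFAT construct are not stated in the labels. Fos is one of the proteins that pair to form AP-1, and NFAT proteins are transcription factors downstream of calcineurin.

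Neutrophils mature in the bone marrow through stages that fill different granules in turn. Promyelocytes make the azurophil granules, with myeloperoxidase and the serine proteases elastase and proteinase 3. Myelocytes and metamyelocytes make the specific granules, with lactoferrin, the cathelicidin precursor and lipocalin 2, and the cytosol of later stages holds much calprotectin, the complex of S100a8 and S100a9. Transcription of the early set declines as that of the late set begins, so the sets mark different stages.

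With 1 array per group there is no replicate, so no test was run and every fold describes a pair of arrays. The authors deposited linear intensities, of which 20.3 to 22.4% per array were at or below 0. Values under a floor of 19.8, the 40th percentile of all scaled values, were set to it before log2 was taken. A gene was called higher or lower when 2 arrays differed at least 2-fold and the brighter one reached 39.6, which is 2 times the floor. Above the floor were 58.4 to 62.2% of each array's probe sets. Levels of different probe sets are not on a common scale, so only ratios are compared between genes.

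All 10 genes were brightest in the Fos+/+ bone marrow culture, and 8 of them were dimmest in the Fos+/+ spleen culture. The exceptions to the second statement were Elane, lowest with deltaNFAT virus by a small margin, and Mpo, which was under the floor in both spleen cultures without virus. Of 5564 genes that reached 39.6 in at least 1 array, 25.6% were brightest in Fos+/+ bone marrow and 23.9% dimmest in Fos+/+ spleen. In 7 of the 10 genes the arrays stood in one order, from Fos+/+ bone marrow at the top through GFP virus, deltaNFAT virus and Fos-/- spleen without virus to Fos+/+ spleen. That full order was found in 119 of the 5564 genes (2.14%), the 7 included. The order was read from the 10 genes themselves, so its share among them is no test against the other genes. Neighbours in the order mostly lay within 2-fold of each other: the step below bone marrow reached 2-fold in 2 genes (Mpo and Elane), the next in 0, the third in 3 and the last in 5.

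**Figure D1:**
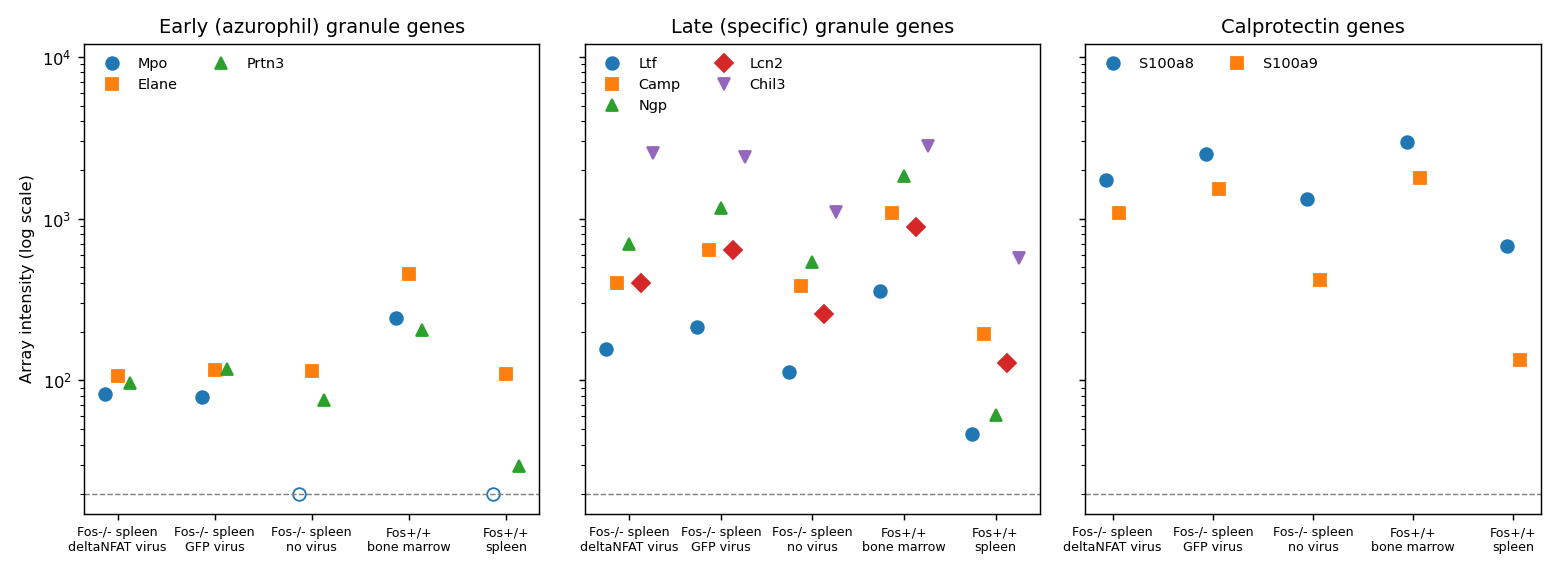
Array intensity (log scale) of the 10 genes in each of the 5 arrays, 1 point per gene and array, in panels for early granule, late granule and calprotectin genes. The dashed line is the floor of 19.8 and open symbols are values under it. Every gene has its highest point in Fos+/+ bone marrow, and Elane lies level over the other arrays.

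At the floor of 19.8, the early granule genes did not share one profile. Elane, the neutrophil elastase, read 107 with deltaNFAT virus, 116 with GFP virus, 115 in Fos-/- spleen without virus, 453 in Fos+/+ bone marrow and 109 in Fos+/+ spleen. Its 4 spleen values thus lay within 1.09-fold of each other, and bone marrow stood 3.89-fold above the next array. Prtn3, which encodes proteinase 3, read 96.8, 118 and 75.6 in the Fos-/- spleen cultures with deltaNFAT, GFP and no virus, 205 in Fos+/+ bone marrow and 29.7 in Fos+/+ spleen. Unlike Elane it differed 3.97-fold over the 4 spleen arrays. This contrast rests on dim values. A higher floor of 90.7, the median size of the 1st percentile of an array, left little of it. Fos-/- over Fos+/+ spleen then gave a log2 ratio of 0 for Prtn3 and 0.07 for Elane. GFP virus over no virus gave 0.38 and 0.02.

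Mpo encodes myeloperoxidase, the enzyme that makes hypochlorous acid. It read 82.5 with deltaNFAT virus, 79.5 with GFP virus, -1.5 without virus in Fos-/- spleen, 243 in Fos+/+ bone marrow and 9.1 in Fos+/+ spleen. It was thus above the floor in 3 arrays, namely both virus cultures and bone marrow. Its other probe set read between 10.7 and 28.2 in all 5 arrays and did not show this pattern, so each statement on Mpo rests on 1 of 2 disagreeing probe sets. The brighter one has an identifier that marks probes shared by more than 1 transcript.

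The promoters of the 3 early genes are shown because they share a short sequence. The 250 bases before the start of each gene (RefSeq, GRCm38.p6, all 10 genes matched) were searched on both strands for 9 patterns chosen after the sequences and values were seen. The pattern AGGAAGT, the core of many sites for the myeloid transcription factor PU.1, was found in 5 of 10 promoters, against 7.69% of 32851 mouse promoters. It was found in all 3 early genes and in Chil3 and S100a8. Each line gives the gene's strand 5′ to 3′ with up to 30 bases on either side, and capitals mark the match, which reads ACTTCCT where it lies on the opposite strand.
Mpo (chr11:87793534-87793597, plus strand): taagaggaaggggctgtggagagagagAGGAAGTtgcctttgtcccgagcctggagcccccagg
Elane (chr10:79886198-79886264, plus strand): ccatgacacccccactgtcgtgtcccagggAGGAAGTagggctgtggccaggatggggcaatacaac
Prtn3 (chr10:79879543-79879609, plus strand): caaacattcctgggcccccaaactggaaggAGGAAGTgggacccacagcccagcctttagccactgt
Chil3 (chr3:106167588-106167654, minus strand): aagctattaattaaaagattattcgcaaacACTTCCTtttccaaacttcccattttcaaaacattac
S100a8 (chr3:90668869-90668935, plus strand): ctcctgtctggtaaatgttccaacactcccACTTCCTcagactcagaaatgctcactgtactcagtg

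The match began 84 bases before the start in Elane, 94 in Prtn3 and 223 in Mpo. Elane and Prtn3 are next to each other on chromosome 10 among protein-coding genes. At the floor of 19.8 their intensities differed in profile over the spleen arrays. A match describes letters in these windows and shows no binding.

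Of the 5 late granule genes, 4 had the common order of arrays, Chil3 being the exception. Ngp, the neutrophilic granule protein, a cystatin-related protein, read 701 with deltaNFAT virus, 1165 with GFP virus, 540 in Fos-/- spleen without virus, 1835 in Fos+/+ bone marrow and 61.5 in Fos+/+ spleen. Its range over the 5 arrays was 29.8-fold, the largest among the 9 genes above the floor in every array (that of Mpo, at least 12.3-fold, is a lower bound). Ltf, the iron-binding lactoferrin, read 155, 214 and 113 in the Fos-/- spleen cultures with deltaNFAT, GFP and no virus, 358 in Fos+/+ bone marrow and 46.8 in Fos+/+ spleen. Camp, the precursor of the antimicrobial cathelicidin peptide, read 401, 639 and 384 in those Fos-/- cultures, 1078 in Fos+/+ bone marrow and 195 in Fos+/+ spleen. In both genes Fos+/+ spleen was lowest and the 3 Fos-/- spleen cultures lay between it and bone marrow.

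Lcn2 encodes lipocalin 2, which binds bacterial siderophores and so withholds iron. Its brighter probe set read 402 with deltaNFAT virus, 639 with GFP virus, 257 in Fos-/- spleen without virus, 885 in Fos+/+ bone marrow and 129 in Fos+/+ spleen. The other probe set, whose identifier marks a design with relaxed rules, read 49.3 to 84.3 and varied only 1.71-fold. Each call on Lcn2 thus rests on 1 of 2 disagreeing probe sets. Chil3, a chitinase-like protein also known as Ym1 that alternatively activated macrophages make as well, read 2547, 2410 and 1095 in Fos-/- spleen with deltaNFAT, GFP and no virus, 2816 in Fos+/+ bone marrow and 567 in Fos+/+ spleen. Its near relative Chil4 is the neighbouring gene on chromosome 3 and has no probe set here, and whether its transcript adds to the signal was not tested. Unlike the other 4 late genes Chil3 was not lower with deltaNFAT than with GFP virus.

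Both calprotectin genes followed the same order of arrays. S100a8 read 1743 with deltaNFAT virus, 2501 with GFP virus, 1319 in Fos-/- spleen without virus, 2971 in Fos+/+ bone marrow and 674 in Fos+/+ spleen. S100a9, the partner subunit, read 1077, 1524 and 416 in the same Fos-/- cultures, 1791 in Fos+/+ bone marrow and 134 in Fos+/+ spleen. Its range over the arrays was 13.3-fold and that of S100a8 4.41-fold. S100a8 and S100a9 are neighbouring genes on chromosome 3, and Camp, Ngp and Ltf lie on chromosome 9 with 8 protein-coding genes between Camp and Ngp and 29 between Camp and Ltf.

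A second pattern was found upstream of some of the late genes and of S100a9. TTGCNNAA, searched on both strands, which fits many sites of the C/EBP factors that act in granulocyte maturation, was in 4 of 10 promoters (Ltf, Ngp, Lcn2 and S100a9), against 9.56% of all promoters. In this spelling none of these genes was among the 5 with AGGAAGT. How often all promoters hold both was not counted, so no division of the genes is read from this. Camp had neither pattern. Of the 4 genes with TTGCNNAA, Ngp held it at both ends of the window shown.
Ngp (chr9:110419640-110419807, plus strand): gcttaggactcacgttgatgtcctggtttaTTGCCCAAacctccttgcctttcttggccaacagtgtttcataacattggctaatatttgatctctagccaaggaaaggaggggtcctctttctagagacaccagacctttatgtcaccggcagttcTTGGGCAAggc
Ltf (chr9:111019187-111019254, plus strand): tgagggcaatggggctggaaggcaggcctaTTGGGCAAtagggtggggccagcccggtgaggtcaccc
Lcn2 (chr2:32387918-32387985, minus strand): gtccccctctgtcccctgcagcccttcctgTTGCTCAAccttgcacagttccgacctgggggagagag
S100a9 (chr3:90695920-90695971, minus strand): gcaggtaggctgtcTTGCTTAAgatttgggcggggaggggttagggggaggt

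The counts depended on how the patterns were spelled. The longer GAGGAAGT, which contains AGGAAGT, was in 4 of 10 promoters against 2.44% of all. The looser TTGCNNNA, which covers every TTGCNNAA match, was in 9 against 29.3%, GCAAT in 8 against 23.1%, and TTNCGCAA in 0 against 0.67%. TTGCNNNA was also in Mpo, Elane, Prtn3 and S100a8, which hold AGGAAGT, so the lack of overlap depended on the spelling. The AP-1 pattern TGANTCA was in 0 of 10 against 6.75%, TATAAA in 1 (S100a8) against 12.4%, and GATAA in 3 (Ltf, Chil3 and S100a9) against 22.6%.

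Fos-/- spleen cultures were compared with Fos+/+ spleen cultures, both without virus, the comparison that addresses the loss of Fos. Of the 10 genes, 5 were at least 2-fold higher in Fos-/- spleen and 0 lower, where 6.4% of the 4999 genes bright enough were called higher and 6.52% lower. Ngp stood out at 8.78-fold higher, followed by S100a9 at 3.10-fold, Prtn3 at 2.55-fold, Ltf at 2.42-fold and Lcn2 at 2.0-fold. Camp at 1.97-fold, S100a8 at 1.96-fold and Chil3 at 1.93-fold lay just under 2-fold, so that Lcn2 and these 3 genes differ by less than the call can tell. Elane was at 1.05-fold and Mpo under the floor in both arrays. By its other probe set Lcn2 read 71.0 in Fos-/- spleen and 69.9 in Fos+/+ spleen. The median log2 ratio was 1.00 over the 9 genes above the floor and 0.03 over all bright genes. At a floor of 65.1, the 60th percentile, 3 genes were called (Ngp, S100a9 and Lcn2), because Prtn3 and Ltf read under it in Fos+/+ spleen.

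In Fos+/+ cells, the bone marrow culture was compared with the spleen culture. All 10 genes were at least 2-fold higher in bone marrow and 0 lower, against 13.1% of 5289 bright genes called higher and 7.18% lower. As the genes were chosen with earlier results known, this excess is a description only. Ngp was 29.8-fold, S100a9 13.3-fold, Ltf 7.65-fold, Prtn3 6.91-fold and Lcn2 6.89-fold higher. Mpo was at least 12.3-fold higher, and 1.42-fold by its other probe set, with which the count was 9. The other probe set of Lcn2 read 84.3 in bone marrow and 69.9 in spleen, less than 2-fold apart. The smallest fold was that of Elane at 4.16. The median log2 ratio of the 10 genes was 2.79, beside 0.06 over all bright genes.

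GFP virus was compared with no virus in Fos-/- spleen cells, the comparison that addresses infection with the control virus. An effect of infection and a difference between 2 dishes cannot be told apart with 1 array each. Higher by at least 2-fold were 5 of the 10 genes and lower 0, against 10.3% of 5114 bright genes higher and 7% lower. These were S100a9 (3.66-fold), Lcn2 (2.49-fold), Chil3 (2.20-fold), Ngp (2.16-fold) and Mpo (at least 4.02-fold). Ltf at 1.89-fold, S100a8 at 1.90-fold, Camp at 1.66-fold and Prtn3 at 1.56-fold were higher without reaching 2-fold, and Elane was at 1.01-fold. The median log2 ratio was 1.02, and -0.11 over all bright genes. With a gene's probe sets averaged the count was 3, since Lcn2 and Mpo then stayed under 2-fold. By its other probe set Lcn2 was lower with GFP virus, at 58.0 against 71.0.

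With deltaNFAT virus, 0 of the 10 genes were called higher and 0 lower than with GFP virus, where 3.52% of 5033 bright genes were called higher and 2.66% lower. The median log2 ratio was -0.48, beside 0.00 over all bright genes. Ngp was 1.66-fold lower with deltaNFAT, Camp 1.59-fold, Lcn2 1.59-fold, S100a8 1.43-fold, S100a9 1.41-fold and Ltf 1.38-fold. Chil3 at a log2 ratio of 0.08 and Mpo at 0.05 were level, and Prtn3 and Elane were 1.22-fold and 1.09-fold lower. No replicate gives the spread against which such folds could be judged.

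Relative to Fos-/- spleen without virus, the deltaNFAT culture had 3 genes called higher and 0 lower, against 11% of 5178 bright genes higher and 6.66% lower. S100a9 was 2.59-fold, Chil3 2.33-fold and Mpo at least 4.17-fold higher. Camp (1.05-fold), Ngp (1.30-fold), S100a8 (1.32-fold) and Ltf (1.37-fold) were nearer to the culture without virus. The 3 comparisons among Fos-/- spleen cultures share arrays, and so do the 2 with Fos+/+ spleen, so they do not repeat one another independently.

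**Figure D2:**
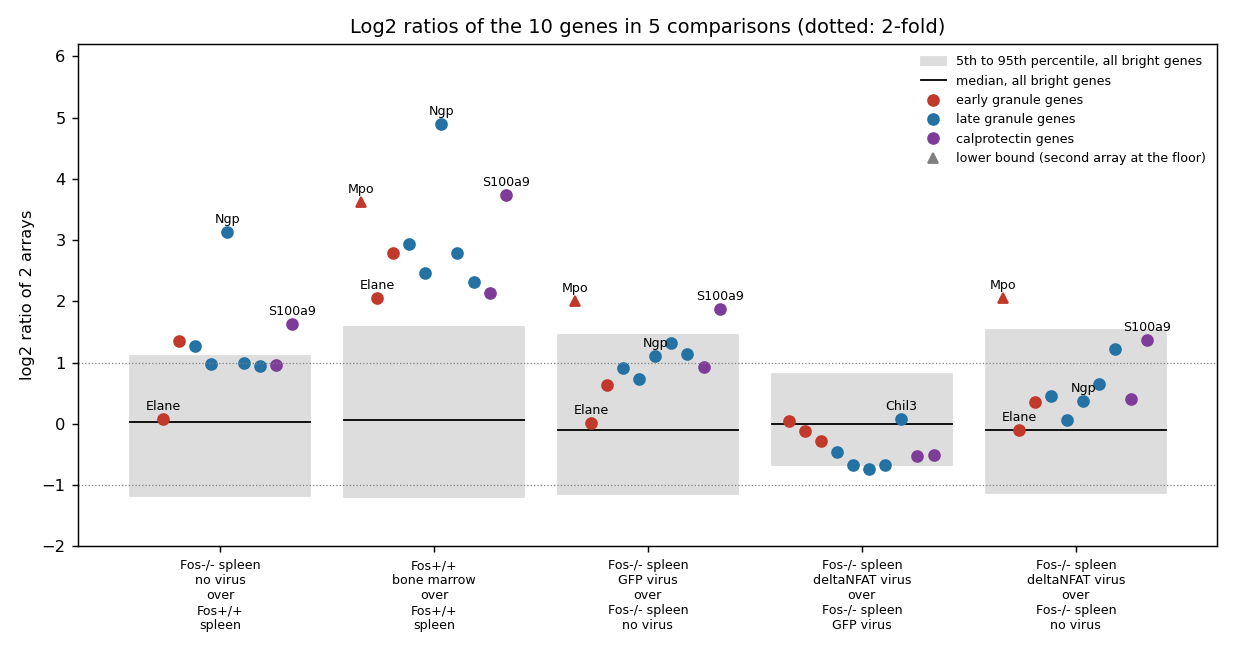
Log2 ratio of the 10 genes in 5 comparisons, coloured by role, over a grey band from the 5th to the 95th percentile of all bright genes with their median as a line. Triangles are lower bounds, dotted lines mark 2-fold, and Mpo is left out where both arrays lie under the floor. All points lie above the band in bone marrow over spleen, and 8 of 10 lie under 0 in deltaNFAT over GFP virus.

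Set against bone marrow, the spleen cultures held different shares of each gene. The median of the 10 genes was 44.4% of the bone marrow value with deltaNFAT virus, 61.6% with GFP virus, 30.5% in uninfected Fos-/- spleen and 14.5% in Fos+/+ spleen. The late genes had medians of 43.4%, 63.5%, 31.6% and 14.5% in those arrays, and the calprotectin genes 59.4%, 84.7%, 33.8% and 15.1%. For the early genes the medians were 33.9%, 32.7%, 25.3% and 14.5%. The share of Ngp in Fos+/+ spleen was 3.35%, and that of Chil3 with deltaNFAT virus 90.5%. For Mpo the share in both spleen cultures without virus, 8.14%, is an upper bound set by the floor.

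**Figure D3:**
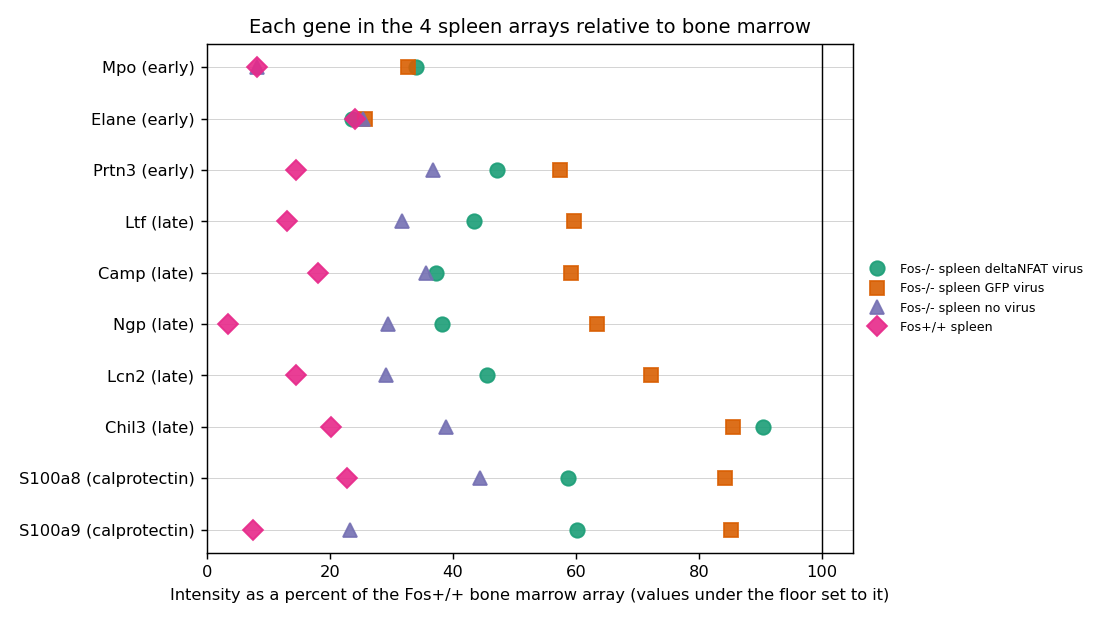
Intensity of each gene in the 4 spleen arrays as a percent of its value in the Fos+/+ bone marrow array (line at 100), 1 symbol per array. GFP virus lies furthest right among the spleen arrays in 8 genes, Chil3 and Mpo have deltaNFAT virus furthest right, and the 4 symbols of Elane coincide near 25%.

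Early and late granule genes were set against each other by their mean log2 ratio. The mean of the early genes minus that of the late genes was -0.76 in Fos-/- over Fos+/+ spleen (Mpo left out, being under the floor), -0.26 in bone marrow over spleen, -0.15 in GFP virus over no virus, 0.37 in deltaNFAT over GFP virus and 0.22 in deltaNFAT over no virus. In Fos-/- over Fos+/+ spleen the genes within a class spread more widely than this difference. The early log2 ratios ran from 0.07 (Elane) to 1.35 (Prtn3) and the late ones from 0.95 (Chil3) to 3.13 (Ngp). In deltaNFAT over GFP virus the early ones ran from -0.28 to 0.05, inside the range of the late ones, from -0.73 to 0.08. There too the late genes spread more widely than the difference of 0.37. With a floor at the 30th percentile, the difference in bone marrow over spleen was 0.12 and that in GFP virus over no virus 0.32, so that their sign is not settled. With the other probe set of Mpo, bone marrow over spleen gave -1.29, GFP virus over no virus -0.94 and deltaNFAT over no virus -0.58.

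The 2 subunits of calprotectin did not keep one ratio. The fold of S100a9 exceeded that of S100a8 by a factor of 1.58 in Fos-/- over Fos+/+ spleen, 3.03 in bone marrow over spleen and 1.93 in GFP virus over no virus. In deltaNFAT over GFP virus the factor was 1.01.

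Other genes of the neutrophil lineage were counted from lists in the same 5 comparisons. Among 12 further genes of specific and gelatinase granules on the array, Fos-/- over Fos+/+ spleen had 2 higher and 2 lower. Of all bright genes 6.4% were higher and 6.52% lower. Pglyrp1, a peptidoglycan recognition protein of specific granules, was 2.57-fold and Anxa3 2.86-fold higher. Mmp9, the gelatinase that osteoclasts make in quantity as well, was 3.59-fold and the integrin chain Itgam at least 2.51-fold lower. In bone marrow over spleen, 2 of the 12 were higher, 1 lower and 9 neither, with a median log2 ratio of 0.13. Of all bright genes 13.1% were higher and 7.18% lower. Pglyrp1 was 9.47-fold and the NADPH oxidase subunit Cybb 4.15-fold higher, and Ltb4r1 at least 2.08-fold lower. Of the 12, 1 was higher and 1 lower in GFP virus over no virus, namely Cybb (5.13-fold) and Ltb4r1 (at least 3.15-fold lower). Of all bright genes 10.3% were higher and 7% lower there.

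Few other early genes could be followed. Of 5 further azurophil and promyelocyte genes on the array, 0 were called in Fos-/- over Fos+/+ spleen and 2 were higher in bone marrow over spleen. Of all bright genes 6.4% were higher and 6.52% lower in the first comparison, and 13.1% and 7.18% in the second. The 2 genes higher in bone marrow were Ctsg and Myb. Ctsg, the granule protease cathepsin G, was at no less than 4.10-fold, and the progenitor transcription factor Myb at no less than 2.10-fold. Both were below 39.6 in every spleen array. Lyz2, lysozyme, read 2915 with deltaNFAT virus, 2941 with GFP virus and 2861 without virus in Fos-/- spleen, 2958 in Fos+/+ bone marrow and 1880 in Fos+/+ spleen, and was called in no comparison.

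Of 14 surface receptors of neutrophils on the array, 1 was higher and 1 lower in Fos-/- over Fos+/+ spleen, where 6.4% and 6.52% of all bright genes were. In bone marrow over spleen 3 were higher and 0 lower (13.1% and 7.18% of all bright genes), and in GFP virus over no virus 0 and 0 (10.3% and 7%). The 3 higher in bone marrow than in Fos+/+ spleen were Ly6g, Fpr2 and Il1r2 (at least 3.07-fold). Unlike the granule genes, Fpr2 and Il1r2 were not brightest in bone marrow. Fpr2 read 91.1 there and 269, 228 and 198 in Fos-/- spleen with deltaNFAT, GFP and no virus. Il1r2 read 60.7 in bone marrow and 90.4 with deltaNFAT virus. Fpr2, a formyl peptide receptor, was higher in Fos-/- spleen by 5.19-fold over Fos+/+ spleen, and in bone marrow by 2.39-fold. Csf3r, the receptor of the granulocyte growth factor G-CSF, read 214, 329 and 252 in Fos-/- spleen with deltaNFAT, GFP and no virus, 272 in Fos+/+ bone marrow and 323 in Fos+/+ spleen. Ly6g, the surface marker that defines mouse neutrophils, read 39.4, 24.4 and 34.4 in those Fos-/- cultures, 53.0 in Fos+/+ bone marrow and 22.2 in Fos+/+ spleen, and was called only in bone marrow over spleen (2.39-fold) among the 5 comparisons. Its highest and lowest arrays were those of most granule genes, at values near the floor. Cxcr2, the main chemokine receptor of neutrophils, was under the floor in all 5 arrays. Of these 3 defining surface markers, Ly6g was dim, Cxcr2 under the floor and Csf3r called in 0 of the 5 comparisons.

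In deltaNFAT over GFP virus, 3 of the 14 receptors were higher and 1 lower, these being Ccr1 (at least 4.10-fold), the interleukin 1 decoy receptor Il1r2 (3.48-fold), Itgam (at least 2.86-fold) and, lower, Ptafr (2.29-fold). Of 11 acute phase genes, 1 was called there, Saa3, which was 4.41-fold higher with deltaNFAT. Of 8 receptors and partners of the secreted proteins, Slc22a17, a receptor for lipocalin 2, was the one called, at least 2.32-fold higher. Of all bright genes 3.52% were called higher and 2.66% lower in deltaNFAT over GFP virus.

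Of 10 transcription factors of granulocytes on the array, 0 were higher and 2 lower in Fos-/- over Fos+/+ spleen (6.4% and 6.52% of all bright genes), these being Gfi1 (at least 2.72-fold) and Spi1, which encodes PU.1 (2.03-fold). In bone marrow over spleen 1 was higher, Myb, and 0 lower (13.1% and 7.18%). In deltaNFAT over GFP virus 1 was higher, Gfi1 (at least 2.29-fold), and 0 lower (3.52% and 2.66%). In GFP virus over no virus 0 were higher and 1 lower (10.3% and 7%), the retinoic acid receptor Rara (at least 2.28-fold). In deltaNFAT over no virus 1 was higher, Gfi1 (at least 2.29-fold), and 2 lower (11% and 6.66%). The 2 were Rara (at least 2.28-fold) and Cebpa (2.15-fold). Cebpa was at 1.79-fold in Fos-/- over Fos+/+ spleen, and Cebpb and Cebpd were called in 0 of the 5 comparisons. Among 11 other S100 genes, S100a1 was 2.24-fold lower in bone marrow than in spleen, and no other call was made in any of the 5 comparisons.

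The genes whose values were most like each class were found by the root mean square difference of log2 values over the 5 arrays, each gene centred on its mean, among 4392 other genes that reached 79.2 in some array. Nearest to the late genes were Wfdc21 (0.11), Golga4 (0.25), Zfp472 (0.31), Pglyrp1 (0.31) and Mybpc3 (0.34). Wfdc21 read 145 with deltaNFAT virus, 228 with GFP virus, 99.7 in Fos-/- spleen without virus, 349 in Fos+/+ bone marrow and 43.7 in Fos+/+ spleen, and was also nearest to the calprotectin genes (0.19). Next to those came Rbms1 (0.25), Golga4 (0.26), the B cell attracting chemokine Cxcl13 (0.26) and Nfib (0.28). Nearest to the early genes were Eef1b2 (0.13), Rap1a (0.21), Tnfrsf4 (0.24), Mphosph9 (0.24) and Gp9 (0.29). With 5 arrays these distances are a description only.

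**Figure D4:**
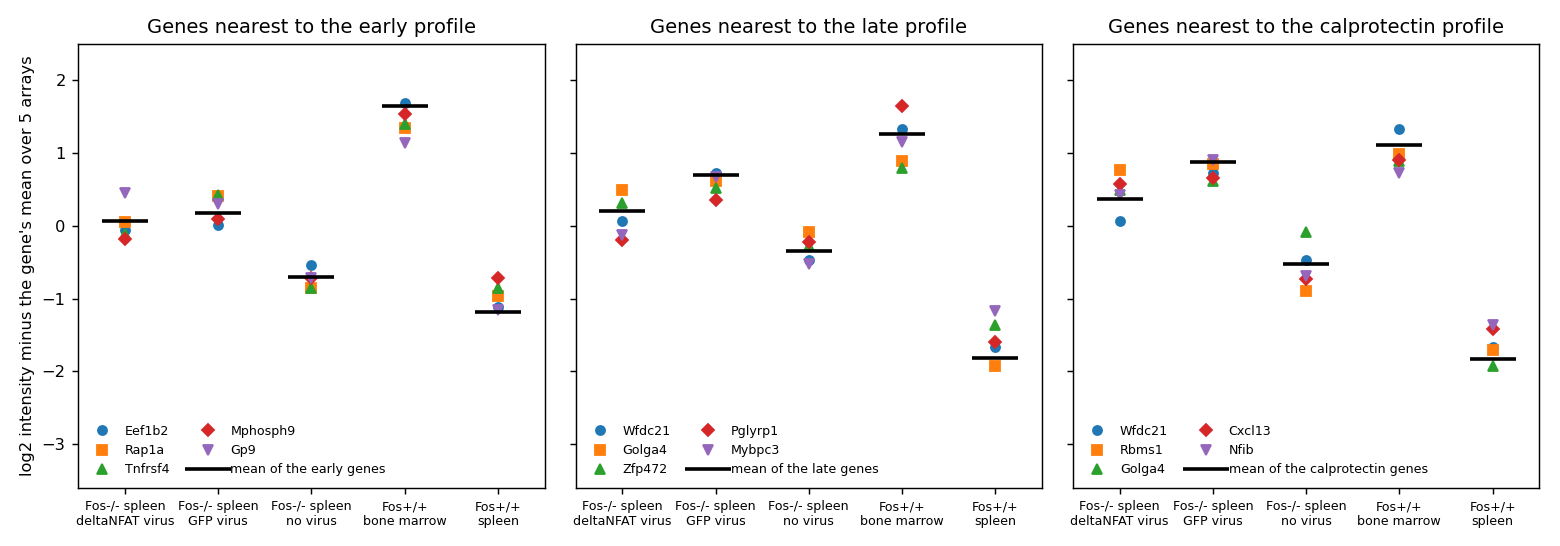
Log2 intensity of the 5 genes nearest to each class in each of the 5 arrays, centred on the gene's mean, with the class mean as a black bar. Wfdc21 lies closest to the late mean, at a root mean square difference of 0.11.

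Markers of other cells moved between the same cultures. All 13 macrophage markers were above the floor in every array, and their summed intensity was 15064 with deltaNFAT virus, 16574 with GFP virus, 14660 in Fos-/- spleen without virus, 11558 in Fos+/+ bone marrow and 10115 in Fos+/+ spleen. Of these 13, 4 were higher and 0 lower in Fos-/- over Fos+/+ spleen, against 6.4% and 6.52% of all bright genes. Such sums weigh bright probe sets most, here the complement genes C1qa, C1qb and C1qc, and Cd68 was 1.66-fold lower in Fos-/- than Fos+/+ spleen. The mannose receptor Mrc1, a marker of alternatively activated macrophages, read 1140, 1045 and 214 in Fos-/- spleen with deltaNFAT, GFP and no virus, 596 in Fos+/+ bone marrow and 58.1 in Fos+/+ spleen. It was 4.88-fold higher with GFP virus than without virus, where Chil3 was 2.20-fold higher. Of 4 alternatively activated macrophage genes on the array, only Mrc1 was called there, against 10.3% of bright genes higher and 7% lower. Il4ra was 1.39-fold lower, and Arg1 and Tgm2 were under the floor in both arrays. In Fos-/- over Fos+/+ spleen 1 was higher, Mrc1 (3.68-fold), and 1 lower, Tgm2 (at least 2.04-fold). The 8 osteoclast markers on the array summed to 4011, 1945 and 2220 in the Fos-/- cultures with deltaNFAT, GFP and no virus. Their sum was 12027 in Fos+/+ bone marrow and 16216 in Fos+/+ spleen. All 8 were called lower in Fos-/- spleen without virus relative to Fos+/+ spleen, where 6.52% of all bright genes were. Of 5 B cell markers on the array, 0 were higher and 2 lower with GFP virus over no virus. With deltaNFAT virus over no virus 0 were higher and 3 lower. Of all bright genes 10.3% were higher and 7% lower with GFP virus, and 11% and 6.66% with deltaNFAT virus. Cd79b, a chain of the B cell receptor complex, was 3.94-fold lower with GFP virus and Cd79a at least 2.63-fold lower. The 5 summed to 401, 382 and 591 in Fos-/- spleen with deltaNFAT, GFP and no virus, 619 in Fos+/+ bone marrow and 554 in Fos+/+ spleen. Among 6 T cell markers only Cd4 was above the floor in any array, and it was 6.69-fold higher in Fos-/- over Fos+/+ spleen and 5.15-fold higher in bone marrow over spleen, with Cd3e, Cd3d and Cd3g under the floor in all 5 arrays. The part of these other cells in the values of the 10 genes was not tested. Of 10 eosinophil and mast cell markers on the array, 4 were above the floor in some array, while Epx and Prg2 were under it in all 5 arrays. In Fos-/- over Fos+/+ spleen 0 of the 10 were higher and 1 lower (6.4% and 6.52% of all bright genes). The 1 was Mcpt1, 4.42-fold lower, which read 251 in Fos+/+ spleen and 217 in Fos+/+ bone marrow. The 11 stromal markers summed to between 13290 and 15860.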

How the data were processed

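The authors deposited 1 linear intensity per probe set and array, for 5 arrays with 12488 probe sets. Their upstream software was not given in the sources used here. After trimming 2% at either end the deposited intensities average 100.0 in each array, and values below 0 occur, so ratios of dim genes are uncertain.

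From these intensities, arrays were rescaled to an equal trimmed mean, raised to a floor at the 40th percentile (19.8) where lower, and put on a log2 scale. Control probe sets (66) were left out. Of the probe sets, 10855 had 1 symbol, 396 several and 1237 none, and only the first were used. The brightest probe set (highest mean intensity over the arrays) represented a gene. Called meant a ratio of 2-fold or more with the brighter array at 39.6 or more, and a fold against an array at the floor is a lower bound. With 1 array per group no test, standard deviation or interval was possible, and the number of arrays limits the precision. Named genes were the 10 members, the 5 nearest to each class, and members of lists of related genes and cell markers, up to 4 per list and direction with the largest ratio; defining markers and lists' other members named for their levels fall outside this rule. The members and lists were chosen with earlier results of these data known. Calls were tested on simulated data, with changes larger than 2-fold in genes well above the floor. The simulation therefore does not gauge calls near 2-fold or near the floor. Python 3.11.15, numpy 2.4.6 and pandas 2.3.3 were used. Other floors, quantile normalization, no rescaling, averaged probe sets and unsuffixed probe sets alone were tried as alternatives.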

Additional observations from a re-analysis of the deposited data

How the results depend on the processing

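Over the 23 calls of the 10 genes in 5 comparisons, the values as deposited kept 23, quantile normalization 22, the mean of all probe sets 19 and unsuffixed probe sets alone 20. The unsuffixed setting leaves out the dimmer probe set of Lcn2, so it does not bear on the Lcn2 calls. A floor of 65.1 kept 19. A floor at the 20th percentile could not be run, as that value lies below 0. A floor at the 30th percentile (7.40) kept 23 and a floor of 90.7, the median size of the 1st percentile of an array, kept 19; these 2 were chosen after seeing the data. The number of genes higher in Fos-/- over Fos+/+ spleen was 3 at the floors of 65.1 and 90.7, where Prtn3 and Ltf were lost. In GFP virus over no virus it was 3 with the mean of all probe sets. The early minus late difference in log2 was -1.10, -1.29 and -1.22 in bone marrow over spleen at the floor of 65.1, with unsuffixed probe sets and at the floor of 90.7. With unsuffixed probe sets and at the floor of 90.7 it was -0.94 and -0.84 in GFP virus over no virus, and -0.58 and -0.56 in deltaNFAT over no virus. Mpo with its unsuffixed probe set had a log2 ratio of -0.35 with either virus over no virus, the opposite sign, from values near the floor. No paired analysis was possible because each group has 1 array, and for the same reason no replicate could be left out.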
